A study of Mus musculus with 3 samples.

Results

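Small leucine-rich proteoglycans (SLRPs) are secreted matrix proteins built around a chain of leucine-rich repeats, and 10 of their genes are described here: Dcn, Lum, Bgn, Fmod, Ogn, Omd, Prelp, Aspn, Kera and Chad. The genes were chosen as a family, by symbol, with earlier results of these data known. Each symbol stood for 1 of the 32285 genes listed in the files, and all 10 had UMIs (unique molecular identifiers, each standing for 1 captured RNA molecule) in the cells kept, as did 25292 genes in all. The libraries were single-cell RNA-seq libraries of mouse tibialis anterior (TA) muscle taken 4 days after BaCl2 injection, which kills muscle fibres and starts their regeneration. There were 3 groups of C57/BL6J mice, each 1 library of TA muscle pooled from several animals: young mice given PBS, old mice given PBS, and old mice given recombinant METRNL (rMETRNL), the secreted protein meteorin-like, into the injured muscle. The libraries held 12168, 12568 and 14012 cell barcodes in that order, with 218059089, 179295668 and 228966697 UMIs, and 10312, 10031 and 11436 barcodes passed the filters on cells. Pairs of libraries shared 58 to 80 barcodes, of which 24 to 34 were kept in both. With 1 library per group, age and treatment cannot be told apart from the library. The groups could therefore not be tested against each other, and the 95% intervals given for levels, ratios and shares cover the counting of UMIs or cells within a library alone. Those beside a median are over genes.

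In the textbook account, SLRPs sit on collagen fibrils through their leucine-rich repeats and set fibril diameter and spacing, and they also bind growth factors such as TGF-beta. Decorin (Dcn), biglycan (Bgn) and asporin (Aspn) form the first class of the family, and Dcn and Bgn carry chondroitin or dermatan sulfate chains. Lumican (Lum), fibromodulin (Fmod), keratocan (Kera), osteomodulin (Omd) and Prelp form the second class, several of them with keratan sulfate. Osteoglycin (Ogn, also called mimecan) belongs to the third class, and chondroadherin (Chad) is a related protein without such chains. In muscle these proteins are made mainly by connective tissue cells: the fibro/adipogenic progenitors (FAPs), which are the mesenchymal cells between fibres, and the tenocytes of the tendon.

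The genes lie in small groups on the GRCm38 assembly (GENCODE M21 annotation). Dcn at chr10:97479609-97518143, Lum at chr10:97565128-97572703 and Kera at chr10:97606879-97613692 follow each other on the plus strand, with gaps of 46.984 kb and 34.175 kb, and Epyc, another SLRP gene, comes next. Aspn at chr13:49544443-49567565, Omd at chr13:49582462-49592822 and Ogn at chr13:49608046-49624501 form the second group, with gaps of 14.896 kb and 15.223 kb. All 3 of these lie within Cenpp, a gene of the opposite strand. Prelp at chr1:133910304-133921414 on the minus strand overlaps the antisense gene Gm15851, and Fmod at chr1:134037254-134048277 lies 115.839 kb away on the plus strand. Bgn at chrX:73483602-73495933 stands alone, and Chad at chr11:94565047-94569127 overlaps Acsf2 of the opposite strand. Cell Ranger, which made the counts, by default counts only reads in the sense direction of a gene, which keeps genes of opposite strands apart, and whether that default was kept is not given in the sources used here.

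The 250 bases upstream of the start were read from RefSeq (GRCm38.p6) for the 8 members that had an entry, and they are shown for 4 genes that differ in the cells that carry their UMIs. UMIs of Fmod and Chad came almost wholly from tenocyte-like cells, while Bgn and Aspn were also high in pericyte-like cells (values given with the levels). Capitals mark TATAAA, searched on the printed strand, and CANNTG, the E-box pattern bound by basic helix-loop-helix factors such as Scx, which reads the same on both strands. All 4 sequences are from the plus strand, written 5′ to 3′, at chr1:134037004-134037253 for Fmod, chr11:94564797-94565046 for Chad, chrX:73483351-73483600 for Bgn and chr13:49544193-49544442 for Aspn.
Fmod: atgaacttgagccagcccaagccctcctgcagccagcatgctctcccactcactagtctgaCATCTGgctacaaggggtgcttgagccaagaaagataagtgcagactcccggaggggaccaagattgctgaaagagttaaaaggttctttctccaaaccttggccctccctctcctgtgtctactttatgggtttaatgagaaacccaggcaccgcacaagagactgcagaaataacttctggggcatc
Chad: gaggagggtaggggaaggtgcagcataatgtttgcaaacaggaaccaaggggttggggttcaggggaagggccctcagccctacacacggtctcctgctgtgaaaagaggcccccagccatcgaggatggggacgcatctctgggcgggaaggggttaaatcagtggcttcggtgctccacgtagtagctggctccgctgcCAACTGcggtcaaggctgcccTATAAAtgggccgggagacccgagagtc
Bgn: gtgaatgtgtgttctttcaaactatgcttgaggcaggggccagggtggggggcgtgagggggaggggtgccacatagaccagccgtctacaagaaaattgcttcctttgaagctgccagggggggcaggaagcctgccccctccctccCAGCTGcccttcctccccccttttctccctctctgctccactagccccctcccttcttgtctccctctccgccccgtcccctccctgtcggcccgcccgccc
Aspn: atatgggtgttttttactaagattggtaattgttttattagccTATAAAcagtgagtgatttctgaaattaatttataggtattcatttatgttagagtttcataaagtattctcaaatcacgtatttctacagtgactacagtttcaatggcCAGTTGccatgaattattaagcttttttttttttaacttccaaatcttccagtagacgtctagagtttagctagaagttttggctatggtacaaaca
In Chad the TATAAA began 28 bases before the start and the CANNTG 49 bases before it. The CANNTG began 189 bases before the start in Fmod, 102 bases in Bgn and 97 bases in Aspn, and the TATAAA of Aspn lay further off, at 207 bases. Bgn held 3 matches to GGGCGG on either strand, the pattern bound by Sp1, within 34 bases of its start, and Chad held 1. Of the 32851 RefSeq windows of the same length, 7.59% held TATAAA, 66.2% held CANNTG and 32.7% held GGGCGG, so the last pair are common. TGAGTCA, the AP-1 pattern, was in 4.46% of all windows and in none of the 8 SLRP windows. Dcn and Lum were not among the 8.

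Cells were grouped by clustering that left the 10 genes out, and classes were named from marker lists that held none of them. In the values that follow, the order is young PBS, old PBS and old rMETRNL. FAP-like cells numbered 1624, 1336 and 1676, and tenocyte-like cells 188, 120 and 208. A class of 87, 105 and 83 cells named from pericyte and smooth muscle markers is called pericyte-like. All 13 FAP markers were detected in FAP-like cells of each library, and all 8 tenocyte markers in tenocyte-like cells, where their summed level was 19132, 16329 and 17004 CPM, that is, UMIs in each 1000000 UMIs of the class. The same tenocyte list summed to 1311, 2069 and 1171 CPM in FAP-like cells. UMIs were not divided by transcript length, so levels are compared between classes and libraries within a gene and not between genes.

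Of the 8 classes with at least 50 cells in each library, 2 stood out in SLRP UMIs. The 10 genes together made up 10905, 13915 and 11347 CPM of FAP-like cells and 25811, 29881 and 30985 CPM of tenocyte-like cells, against 2084, 1741 and 1955 CPM of pericyte-like cells. In 8 of the 10 genes the level was higher in tenocyte-like than in FAP-like cells in all 3 libraries with no overlap of the counting intervals. Bgn was the exception with the opposite order, and the order of Lum differed between libraries.

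**Figure D1:**
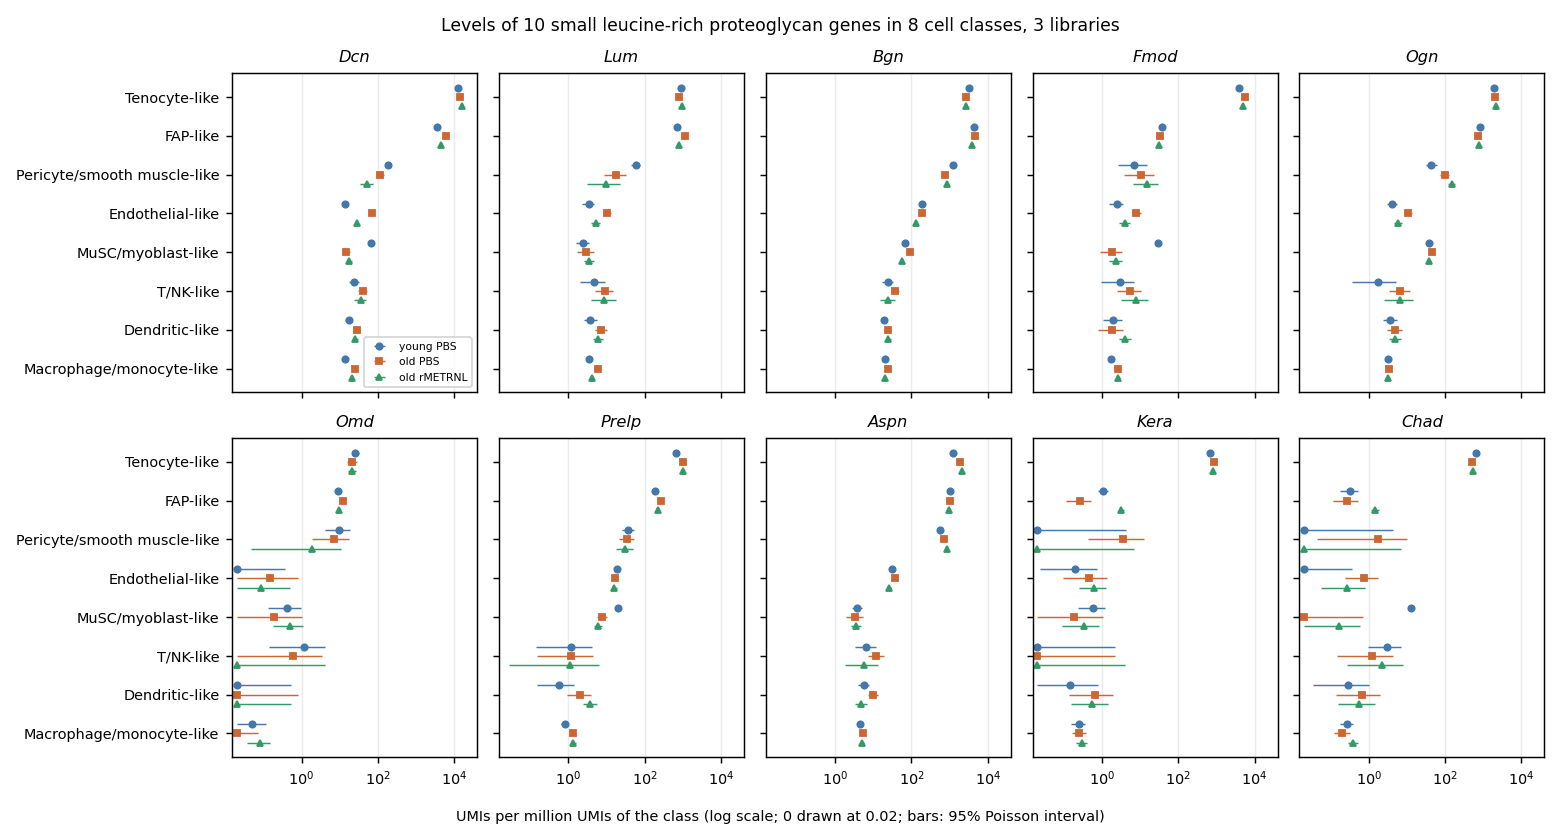
Level of each SLRP gene (UMIs in each 1000000 UMIs of the class, log axis) in the 8 described cell classes, with 1 point per library, bars for the 95% Poisson interval and levels of 0 drawn near the left edge. Fmod, Kera and Chad stood high in tenocyte-like cells alone, whereas Dcn, Lum, Bgn, Ogn, Prelp and Aspn were high in both FAP-like and tenocyte-like cells, and Bgn and Aspn also in pericyte-like cells.

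Dcn, which binds collagen fibrils and TGF-beta, was at 12683, 14392 and 15888 CPM in tenocyte-like cells and at 3684, 6086 and 4678 CPM in FAP-like cells. Pericyte-like cells were at 181, 117 and 51.2 CPM. Among these 8 classes, tenocyte-like cells thus stood above FAP-like cells, and FAP-like cells above the others, in each library with intervals apart. Lum, a keratan sulfate proteoglycan that regulates fibril assembly, was at 715, 1151 and 802 CPM in FAP-like cells and at 904, 802 and 927 CPM in tenocyte-like cells. Tenocyte-like cells had the higher Lum level in young PBS and old rMETRNL, and FAP-like cells had it in old PBS. Bgn, the closest relative of Dcn and a ligand of Toll-like receptors when soluble, was at 4395, 4628 and 3828 CPM in FAP-like cells. Its level was 3131, 2702 and 2616 CPM in tenocyte-like cells, 1200, 756 and 856 CPM in pericyte-like cells and 190, 189 and 127 CPM in endothelial-like cells. These 4 classes stood in the same order in every library, with intervals apart.

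Fmod, Kera and Chad were nearly confined to tenocyte-like cells. Fmod, which shares its collagen site with Lum and is a known tendon proteoglycan, was at 3976, 5620 and 4835 CPM there and at 38.2, 33.6 and 30.3 CPM in FAP-like cells. Tenocyte-like cells held 87.2%, 89.3% and 90.7% of all Fmod UMIs of the kept cells, although they were few. Kera, best known from the cornea, was at 687, 879 and 833 CPM in tenocyte-like cells. In FAP-like cells Kera was at 1.06, 0.261 and 3.22 CPM, which stood for 48, 8 and 142 UMIs. Of those FAP-like Kera UMIs, 29 of 48 in young PBS and 53 of 142 in old rMETRNL came from 1 cell. Chad, a cartilage and tendon protein that binds integrins, was at 633, 516 and 534 CPM in tenocyte-like cells. Tenocyte-like cells held 92.6%, 96.4% and 94.2% of the Chad UMIs and 97.1%, 97.6% and 94.1% of the Kera UMIs. In young PBS, muscle stem cell (MuSC)-like cells held 153 Chad UMIs, but 150 of them were in 1 cell, which makes their 12.4 CPM the level of that cell.

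Ogn, Omd, Prelp and Aspn were high in both connective tissue classes. Ogn was at 1865, 2060 and 2184 CPM in tenocyte-like cells and 840, 734 and 787 CPM in FAP-like cells. It was also found in MuSC-like cells at 37.0, 46.2 and 38.2 CPM, spread over 152, 82 and 158 cells and above the endothelial-like and T/NK-like levels in each library. Omd, known from bone, was sparse, at 25.9, 21.5 and 21.3 CPM in tenocyte-like cells from 104, 46 and 79 UMIs, and at 9.03, 12.4 and 9.35 CPM in FAP-like cells. Prelp, an anchor between basement membrane and collagen, was at 665, 987 and 1036 CPM in tenocyte-like cells and 185, 269 and 230 CPM in FAP-like cells. Aspn, a relative of Dcn that lacks the sugar chain and is named for its run of aspartates, was at 1242, 1901 and 2112 CPM in tenocyte-like cells and at 1038, 1001 and 978 CPM in FAP-like cells. Pericyte-like cells followed at 548, 695 and 843 CPM for Aspn, and all 3 classes were apart in each library.

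T/NK-like cells, which should make no SLRP, were taken as the level of free RNA. All 10 genes were above them in tenocyte-like cells in each library with intervals apart, and 8 were in FAP-like cells. The FAP-like levels of Kera and Chad were not above T/NK-like cells in this way in any library. T/NK-like cells held 0 Kera UMIs, and the FAP-like UMIs of both genes sat mostly in a few cells in old rMETRNL, so no level of the class is read from them. In pericyte-like cells Bgn, Ogn, Prelp and Aspn stood above T/NK-like cells in this way, in endothelial-like cells Bgn, Prelp and Aspn did, and in MuSC-like cells Bgn and Ogn did. Pericyte-like Ogn sat in few cells, with 27 of 37 UMIs in 1 cell in young PBS and 89.7% in 5 of 83 cells in old rMETRNL. No gene did so in macrophage-like or dendritic-like cells. In T/NK-like cells Dcn was at 24.1, 39.8 and 35.4 CPM, Bgn at 23.5, 37.4 and 24.3 CPM and Lum at 4.70, 9.05 and 8.85 CPM. Macrophage-like cells, the most numerous class, had 14.0, 25.3 and 21.3 CPM of Dcn and 20.6, 23.9 and 20.2 CPM of Bgn. Both sets of values were highest in old PBS, the library in which FAP-like Dcn was also highest. Some low values came from single cells: in young PBS 1 MuSC-like cell held 652 of 818 Dcn UMIs and 1 pericyte-like cell held 113 of 154, so the order of Dcn below the leading classes is not given.

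**Figure D2:**
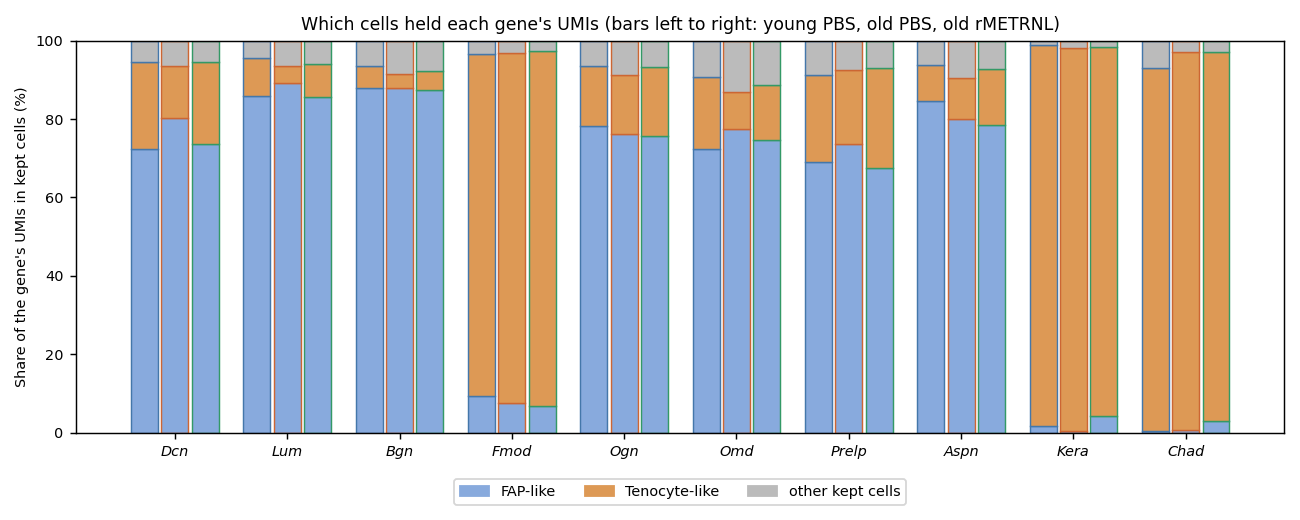
Share of each gene's UMIs in all kept cells that came from FAP-like, tenocyte-like and all other kept cells, with 1 stacked bar per library from 0 to 100%. FAP-like cells held most UMIs of Dcn, Lum, Bgn, Ogn, Omd, Prelp and Aspn, and tenocyte-like cells held 87.2% to 97.6% of those of Fmod, Kera and Chad.

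Counted by UMIs rather than by level, FAP-like cells, which outnumbered tenocyte-like cells, held most UMIs of 7 genes. They held 85.8%, 89.3% and 85.7% of Lum UMIs, 87.9%, 87.9% and 87.3% of Bgn UMIs and 72.4%, 80.2% and 73.7% of Dcn UMIs. For Aspn, Ogn, Omd and Prelp their share lay between 67.4% and 84.7%. These shares hold the number of cells of each class as well as the RNA per cell.

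The classes also differed in the makeup of their SLRP UMIs. In FAP-like cells Dcn was 33.8%, 43.7% and 41.2% of the SLRP UMIs and Bgn 40.3%, 33.3% and 33.7%. In tenocyte-like cells Dcn was 49.1%, 48.2% and 51.3% and Fmod 15.4%, 18.8% and 15.6%. In pericyte-like cells Bgn was 57.6%, 43.4% and 43.8% and Aspn 26.3%, 39.9% and 43.1%. For each Bgn UMI, FAP-like cells held 0.838, 1.32 and 1.22 Dcn UMIs, tenocyte-like cells 4.05, 5.33 and 6.07, and pericyte-like cells 0.151, 0.154 and 0.0597. Within FAP-like and within tenocyte-like cells the intervals of the 3 libraries did not overlap, and both old libraries lay above young PBS.

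**Figure D3:**
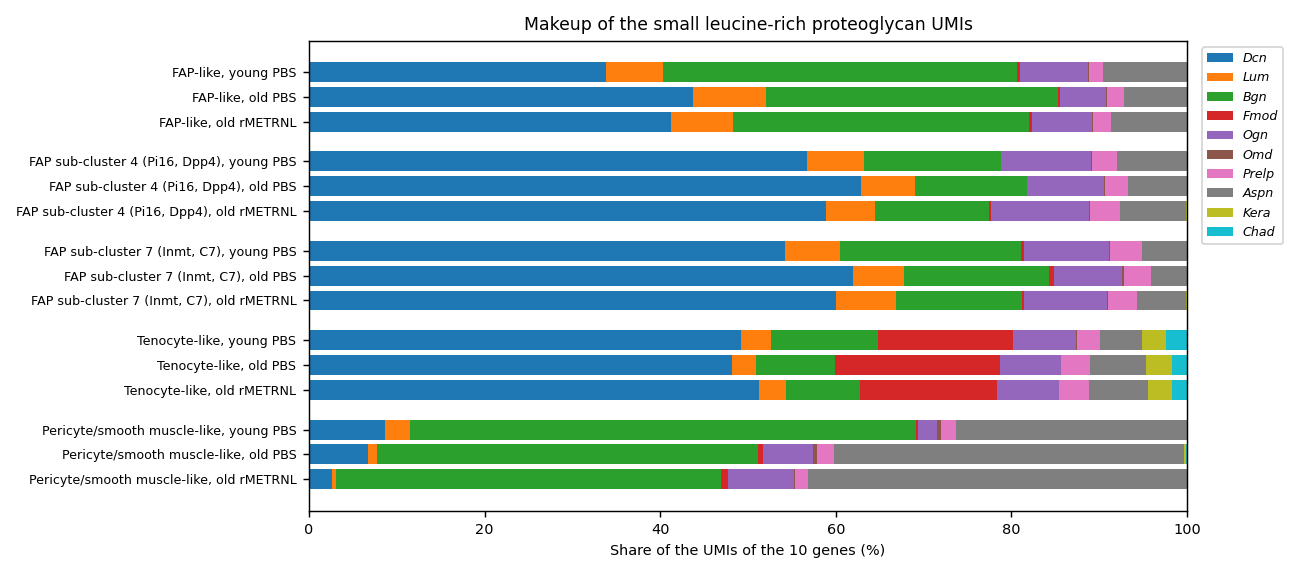
Makeup of the SLRP UMIs of FAP-like cells, their sub-clusters 4 and 7, tenocyte-like cells and pericyte-like cells, as the share (0 to 100%) of each gene in each library. Dcn took 43.7% of SLRP UMIs in FAP-like cells of old PBS against 33.8% in young PBS, Fmod took 15.4% to 18.8% in tenocyte-like cells, and Bgn and Aspn filled most of the pericyte-like bars.

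FAP-like cells were divided further into sub-clusters, again without the 10 genes, and 8 of them had at least 50 cells in each library. Of these 8, sub-cluster 7, led by Inmt, C7 and Myoc, was highest for Dcn, Ogn, Omd and Prelp in all 3 libraries. Dcn was at 11114, 12716 and 12127 CPM there. Sub-cluster 4, led by genes that include Pi16 and Dpp4, came next for Dcn at 6893, 8349 and 6793 CPM. The cycling cells of sub-cluster 6 were lowest for Dcn, Lum, Ogn and Omd in all 3 libraries, with Dcn at 1558, 2458 and 2089 CPM. Bgn followed another order: it was lowest in the Pi16 and Dpp4 sub-cluster, at 1892, 1689 and 1496 CPM, and highest in sub-cluster 2, led by Inka1, or sub-cluster 0, led by Dio2 and Mmp3. Dcn UMIs per Bgn UMI thus ran from 0.440, 0.633 and 0.698 in the cycling cells to 3.64, 4.94 and 4.54 in the Pi16 and Dpp4 cells. Averaged over libraries, the highest sub-cluster exceeded the lowest by 5.89-fold for Dcn, 3.22-fold for Bgn, 6.85-fold for Ogn and 1.87-fold for Aspn, the most even of the abundant members.

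**Figure D4:**
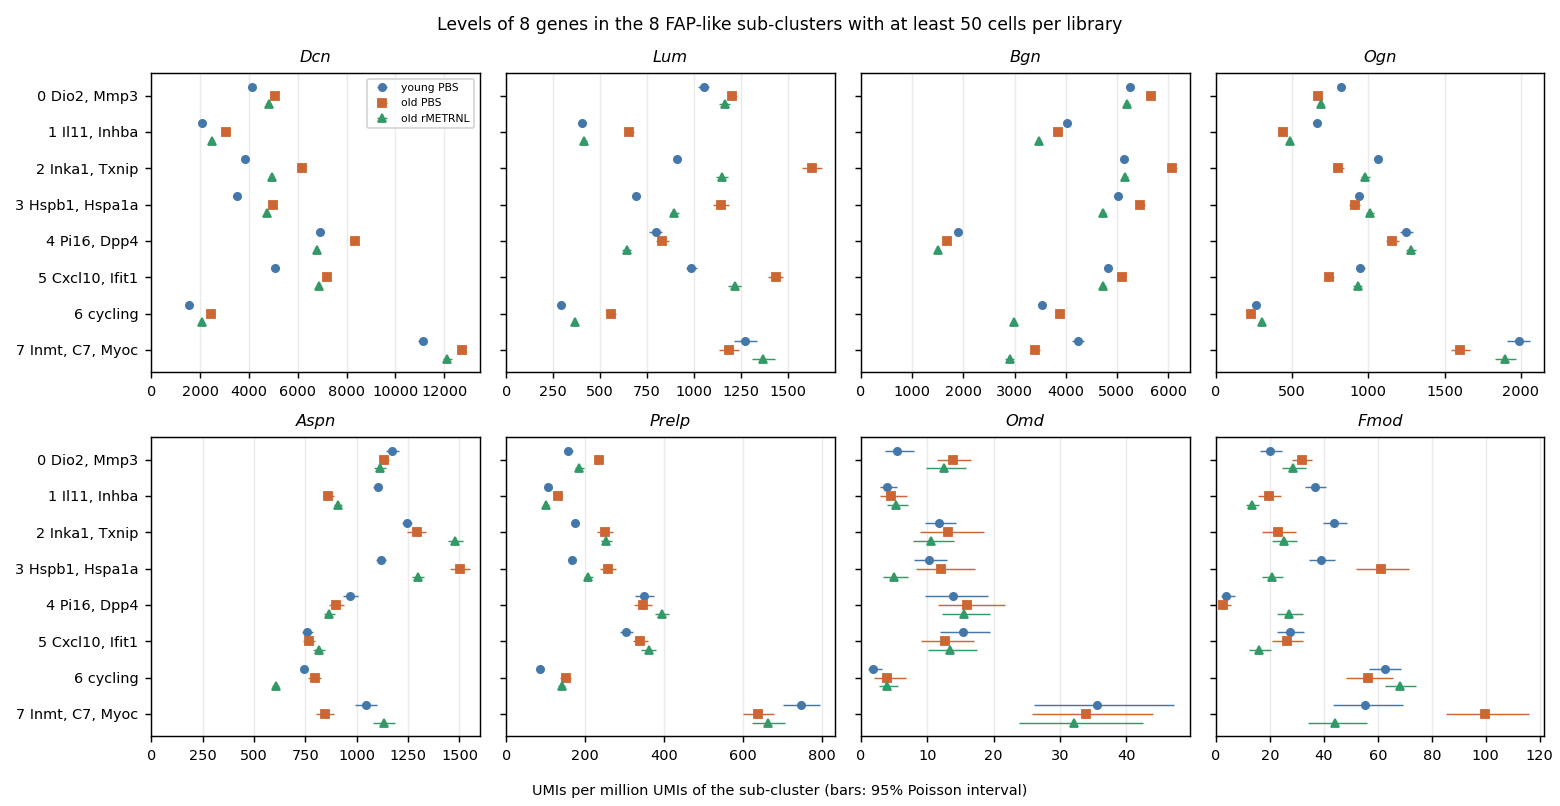
Level (UMIs in each 1000000 UMIs of the sub-cluster, linear axis from 0) of 8 SLRP genes in 8 FAP-like sub-clusters, with 1 point per library and bars for the 95% Poisson interval. Dcn, Ogn and Prelp were highest in sub-cluster 7 in all 3 libraries, and Bgn was lowest in sub-cluster 4.

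The members with keratan sulfate or no chain differed among sub-clusters in their own ways. Lum was at 1270, 1186 and 1368 CPM in sub-cluster 7 and at 909, 1625 and 1147 CPM in sub-cluster 2, so that which of them stood higher differed between libraries. It was at 401, 656 and 416 CPM in sub-cluster 1 and at 294, 556 and 364 CPM in the cycling cells. Ogn ran from 263, 233 and 305 CPM in the cycling cells to 1984, 1602 and 1898 CPM in sub-cluster 7, with the Pi16 and Dpp4 cells next at 1246, 1156 and 1280 CPM. The cells of high Ogn were thus also those of high Dcn, whereas Bgn was lowest in one of these sub-clusters. Prelp was at 747, 637 and 663 CPM in sub-cluster 7 and at 106, 130 and 101 CPM in sub-cluster 1. Omd, though sparse, was at 35.5, 34.0 and 32.2 CPM in sub-cluster 7 against 1.88, 3.89 and 3.92 CPM in the cycling cells. Aspn ranged less, and its ends differed between libraries: it was at 743, 796 and 607 CPM in the cycling cells and at 1246, 1291 and 1480 CPM in sub-cluster 2, but sub-cluster 3 was highest in old PBS, at 1502 CPM, and sub-cluster 5 lowest there, at 767 CPM.

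A further sub-cluster, 9, led by Ces1d and holding Hsd11b1 and Vwa1, had 15, 108 and 52 cells and was not compared. Its Dcn level was 16006, 16167 and 16825 CPM, above that of sub-cluster 7, and it made up 0.924%, 8.08% and 3.103% of FAP-like cells.

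The first comparison was old PBS against young PBS. In FAP-like cells Dcn, Lum, Prelp and Omd had higher levels in old PBS, Bgn and Aspn were nearly level, and Ogn and Fmod were lower. Dcn was at 3684 CPM against 6086 CPM in old PBS, a ratio of 1.65 (interval 1.64 to 1.66). Lum was 715 CPM and 1151 CPM, a ratio of 1.61 (1.59 to 1.63). Prelp had a ratio of 1.45 (1.41 to 1.496) and Omd of 1.37 (1.19 to 1.58). The ratio was 1.05 for Bgn, 0.965 for Aspn, 0.880 for Fmod and 0.873 for Ogn. Kera, at 48 against 8 UMIs, had a ratio of 0.245 (0.1003 to 0.523), and 29 of the 48 were in 1 cell. The ratio of Chad, 0.841, had an interval of 0.306 to 2.15.

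Of the 10 genes, 2 were at least 1.5-fold higher in old PBS (Dcn and Lum), against 7.36% of all 14219 genes with at least 50 UMIs in FAP-like cells. Kera was at least 1.5-fold lower, against 6.72% of all genes, but its ratio was 1.59 with doublet calls kept and 2.25 with a looser cell filter. The median log2 ratio of the 10 genes was 0.012, with an order-statistic interval over genes of -0.212 to 0.687, and the median over all genes was -0.038. That median holds Kera and Chad, from which no class level is read. With a minimum of 200 UMIs, which leaves both out, the median was 0.265 (-0.195 to 0.724), with 5 genes above 0 and 3 below.

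**Figure D5:**
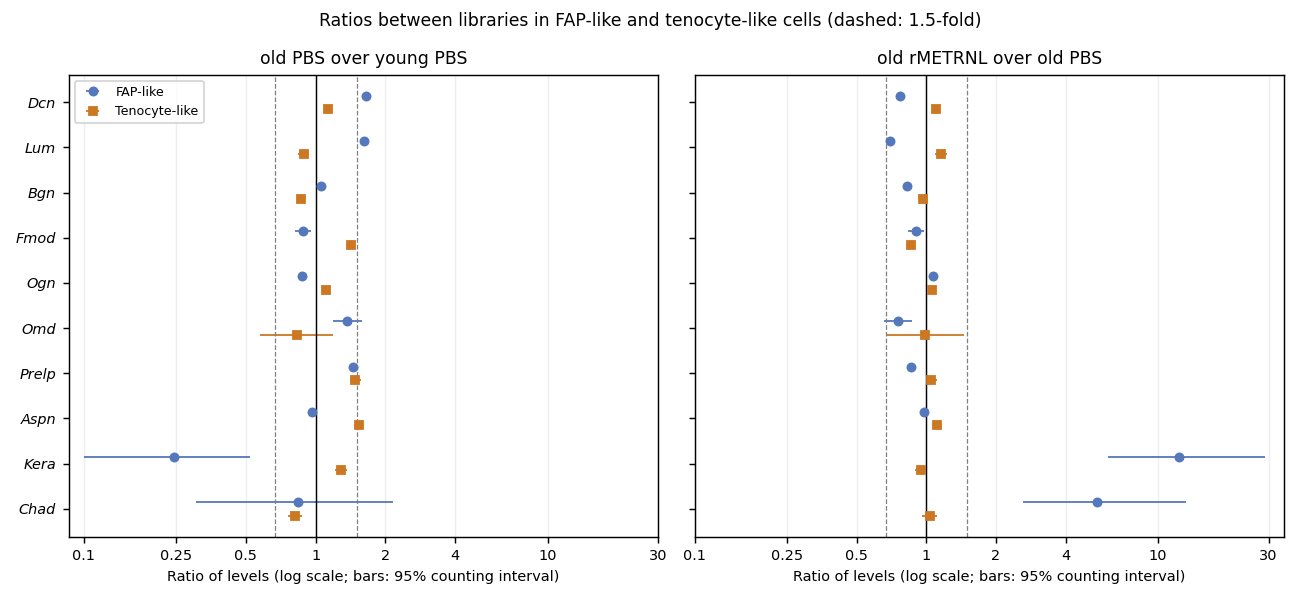
Ratio of levels (log axis) of each SLRP gene in FAP-like and tenocyte-like cells, old PBS over young PBS and old rMETRNL over old PBS, with bars for the 95% counting interval and dashed lines at 1.5-fold. Dcn and Lum lay at 1.65 and 1.61 in FAP-like cells of old PBS over young PBS, Kera and Chad had the widest intervals in FAP-like cells, and Aspn, at 1.53, was the tenocyte-like gene past the line. Over all settings that Aspn ratio ran from 1.32 to 1.53.

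The mix of sub-clusters differed between these libraries. Sub-cluster 2 was the largest in young PBS with 22.1% of FAP-like cells, sub-cluster 0 in old PBS with 26.6%, and sub-cluster 1, led by Il11 and Inhba, in old rMETRNL with 18.0%. The sub-clusters with the most Dcn had larger shares in old PBS than in young PBS: sub-cluster 7 was 5.23% against 10.3% of FAP-like cells, and sub-cluster 9 was 0.924% against 8.08%. Without sub-cluster 9, a setting added after the data were seen, the ratio was 1.53 for Dcn, 1.52 for Lum and 1.40 for Prelp. Within sub-clusters the Dcn ratio was above 1 in 8 of 8, from 1.14 in sub-cluster 7 to 1.61 in sub-cluster 2. When the 8 sub-clusters were given equal weight the ratio was 1.31 for Dcn, 1.35 for Lum and 1.12 for Prelp. The Lum ratio was above 1 in 7 of 8 sub-clusters, from 0.934 in sub-cluster 7 to 1.89 in the cycling cells. Ogn went the other way in all 8, with ratios of 0.664 to 0.968. Bgn was above 1 in 5 of 8, from 0.804 in sub-cluster 7 to 1.19 in sub-cluster 2. Prelp was above 1 in 6 of 8, from 0.853 in sub-cluster 7 to 1.77 in the cycling cells, and Aspn in 4 of 8, from 0.782 to 1.34. Fmod, lower in the whole class, was above 1 in 3 of 8 with intervals apart, and ran from 0.522 in sub-cluster 2 to 1.81 in sub-cluster 7. Sub-cluster 7 was thus the lowest of the 8 for the Dcn, Lum, Bgn and Prelp ratios. Sub-cluster 0 had Cilp as the only tenocyte marker and no FAP marker among its leading genes. Of the 8 tenocyte markers 2 were raised in it over the other FAP-like cells. The tenocyte list summed to 2069 CPM in FAP-like cells of old PBS against 1311 CPM in young PBS. That sum was carried by Cilp, at 738, 1451 and 703 CPM in the 3 libraries, and of the 8 markers 3 (Cilp, Thbs4 and Tnmd) were higher in old PBS than in young PBS and 5 lower. Other lists in FAP-like cells also differed: the myocyte markers summed to 32.7, 92.5 and 40.7 CPM and the pericyte and smooth muscle markers to 381, 220 and 264 CPM, and their part in the ratios was not tested. Without sub-cluster 0 the ratio of Dcn was 1.79 and that of Lum 1.67, while Bgn moved from 1.05 to 0.981.

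The share of FAP-like cells with at least 1 UMI was read after each cell was thinned to 2000 UMIs. This left out 1, 11 and 18 shallower cells. Lum was found in 64.1% (interval 61.8% to 66.5%), 78.6% (76.3% to 80.8%) and 68.3% (66.0% to 70.6%) of cells. Unthinned, the shares were 95.9%, 97.7% and 95.9%. In T/NK-like cells Lum was found in 0.980%, 1.604% and 2.59% of thinned cells. Median depths were 26114, 22183 and 24775 UMIs in FAP-like cells and 5810, 6055 and 5086 UMIs in T/NK-like cells. Prelp was found in 27.9%, 37.3% and 34.8% of thinned FAP-like cells and in 0.490% and 1.07% of T/NK-like cells of the PBS libraries. In the old rMETRNL library it was found in 0 of 116 T/NK-like cells, which at this depth allows up to 2.59% of such cells with a UMI. Dcn was near its ceiling at 95.6%, 99.0% and 96.9%, as was Bgn at 99.1%, 97.1% and 96.5%. Ogn differed less than its intervals at 64.9%, 66.3% and 65.3%. For Fmod the shares were 4.498%, 4.45% and 3.498% of FAP-like cells, against 89.6%, 87.1% and 86.5% of tenocyte-like cells.

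In tenocyte-like cells the largest old PBS over young PBS ratios were those of Aspn, Prelp and Fmod. Aspn was at 1242 CPM against 1901 CPM in old PBS, a ratio of 1.53 (1.47 to 1.596), and was the 1 member at least 1.5-fold higher, against 9.50% of 9477 genes. Prelp had a ratio of 1.48 (1.40 to 1.57) and Fmod of 1.41 (1.38 to 1.45). Kera followed at 1.28, Dcn at 1.13 and Ogn at 1.10. Lum at 0.888, Bgn at 0.863 and Chad at 0.815 were lower in old PBS, and Omd at 0.832 had an interval of 0.575 to 1.19. None was 1.5-fold lower, against 6.31% of all genes. Over all settings the ratio ran from 1.32 to 1.53 for Aspn, from 1.39 to 1.64 for Prelp and from 1.26 to 1.66 for Fmod. Which of these members were past 1.5-fold thus depended on the setting. The median log2 ratio was 0.163 (-0.257 to 0.569) beside 0.040 over all genes. In tenocyte-like cells the markers of macrophages summed to 1289, 2651 and 1379 CPM, with all 12 detected in each library. The 13 FAP markers, all detected, summed to 42615, 32908 and 41227 CPM there, lowest in old PBS. The part of these lists in these ratios was not tested. After thinning to 2000 UMIs, Aspn was found in 58.5% (51.0% to 65.7%) of young PBS tenocyte-like cells and 71.6% (62.4% to 79.5%) of those of old PBS. For Prelp the shares were 57.4% (49.9% to 64.6%) and 66.4% (57.0% to 74.9%), and the intervals of both genes overlapped. Kera was found in 47.0%, 44.0% and 48.5% and Chad in 38.8%, 37.9% and 36.5% of thinned tenocyte-like cells.

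The second comparison set old rMETRNL against old PBS, and it uses the same old PBS library as the first. In FAP-like cells Dcn, Lum, Bgn, Prelp, Omd and Fmod had lower levels with rMETRNL, Aspn was nearly level, and Ogn was higher. Dcn was at 6086 CPM against 4678 CPM with rMETRNL, a ratio of 0.769 (0.764 to 0.773). Lum was at 1151 CPM against 802 CPM, a ratio of 0.697 (0.687 to 0.707). The ratio was 0.827 for Bgn, 0.858 for Prelp, 0.756 for Omd, 0.902 for Fmod and 0.977 for Aspn, and that of Ogn was 1.07 (1.05 to 1.09). Kera had 8 UMIs against 142 with rMETRNL, a ratio of 12.3 (6.08 to 29.1), and Chad 8 and 63, a ratio of 5.46 (2.61 to 13.2). The 5 highest of the 1676 cells held 76.8% of the Kera UMIs and 85.7% of the Chad UMIs in old rMETRNL.

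In cells with a Pdgfra UMI and no Ptprc UMI the ratios of Kera and Chad were 1.07 and 1.02. Chad passed the minimum of 50 UMIs only through its 63 UMIs in old rMETRNL, so nothing is read from the 2 genes being past 1.5-fold, beside 4.63% of all genes. No member was 1.5-fold lower, against 4.91%. With the minimum of 200 UMIs, which leaves both genes out, the median log2 ratio was -0.248 (-0.521 to 0.09997), beside 0.015 over all genes that passed 50 UMIs. Over all 10 genes it was -0.185, from which nothing is read because it holds Kera and Chad. Within the 8 sub-clusters the Dcn ratio was below 1 in 8 (0.796 to 0.958), as was that of Bgn (0.770 to 0.928). Lum was below 1 in 7, from 0.635 in sub-cluster 1 to 1.15 in sub-cluster 7, and Ogn above 1 in 8 (1.03 to 1.31). Prelp and Aspn were each below 1 in 4 of 8. Fmod was below 1 in 5 of 8 and ran from 0.338 in sub-cluster 3 to 10.2 in sub-cluster 4. In sub-cluster 4 Fmod passed the minimum of 50 UMIs only through old rMETRNL. Its old PBS level there lay below the T/NK-like range of 2.94 to 7.75 CPM, so nothing is read from the 10.2. With equal weights for the sub-clusters the ratio was 0.897 for Dcn and 0.835 for Lum.

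In tenocyte-like cells the same comparison gave ratios from 0.860 to 1.16. Lum had a ratio of 1.16 (1.09 to 1.23), Aspn of 1.11, Dcn of 1.10 and Ogn of 1.06, while Fmod was lower at 0.860 (0.841 to 0.881). Bgn at 0.968, Prelp at 1.05, Kera at 0.947, Omd at 0.989 and Chad at 1.04 lay near 1, and their intervals reached 1 or included it. No member was past 1.5-fold, against 5.16% of all genes higher and 7.62% lower. The median log2 ratio was 0.059 (-0.079 to 0.151) beside -0.036 over all genes.

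Members found in other classes gave further ratios. In pericyte-like cells Bgn was at 1200, 756 and 856 CPM, a ratio of 0.630 (0.562 to 0.705) for old PBS over young PBS and of 1.13 (0.991 to 1.296) for old rMETRNL over old PBS. Aspn, at 548, 695 and 843 CPM there, had ratios of 1.27 (1.11 to 1.45) and 1.21 (1.06 to 1.39). These levels rest on the class with the fewest UMIs, and over other settings the mean of the 3 libraries ran from 543 to 949 CPM for Bgn and from 344 to 759 CPM for Aspn. The FAP markers summed to 5442, 2624 and 3583 CPM in pericyte-like cells, the order of Bgn but not of Aspn. Their part in the pericyte-like ratios was not tested. In endothelial-like cells Bgn had ratios of 0.995 (0.926 to 1.07) and 0.674 (0.625 to 0.728). In MuSC-like cells Bgn, at 67.7, 91.4 and 56.3 CPM, had ratios of 1.35 (1.21 to 1.51) and 0.615 (0.547 to 0.692), and Ogn had ratios of 1.25 (1.06 to 1.46) and 0.828 (0.708 to 0.969). In T/NK-like cells Bgn was at 23.5, 37.4 and 24.3 CPM, so it too was highest in old PBS, and its part in the MuSC-like ratios was not tested.

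Genes that act with SLRPs were read from lists drawn up by role. The proteases known to cut SLRPs were higher in FAP-like cells of old PBS than of young PBS in 8 of 9 genes that passed the minimum, with a median log2 ratio of 0.863, beside 45.6% of all genes above a ratio of 1. Adamts4, an aggrecanase, was at 88.2, 205 and 116 CPM, and Mmp3, stromelysin, at 54.1, 116 and 93.3 CPM. Adamts1 was at 212, 390 and 291 CPM, Adamts5 at 164, 298 and 265 CPM and the collagenase Mmp13 at 9.12, 19.6 and 9.01 CPM, so that 5 genes were at least 1.5-fold higher in old PBS, beside 7.36% of all genes. Mmp9 was the 1 gene lower, at 25.4, 14.7 and 17.3 CPM, and was at least 1.5-fold lower in old PBS, beside 6.72% of all genes. Mmp3 and Adamts4 lead sub-cluster 0, the largest of old PBS. With rMETRNL against old PBS 8 of 9 ratios were below 1, whereas 52.4% of all genes were above 1. The median log2 ratio was -0.315, and 2 genes were past 1.5-fold, Adamts4 at 0.567 and Mmp13 at 0.461, beside 4.91% of all genes past that fold in this direction.

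In tenocyte-like cells the proteases did not lean one way in old PBS against young PBS. Only Adamts4, at 33.6, 61.3 and 33.7 CPM, was at least 1.5-fold higher of 9 genes, and Mmp3 (799, 520 and 305 CPM), Mmp13 (2373, 1578 and 1542 CPM) and Adamts5 (128, 60.8 and 66.5 CPM) were at least 1.5-fold lower, beside 9.50% and 6.31% of all genes, with a median log2 ratio of -0.153. Against old PBS, the rMETRNL library had Mmp3 at a ratio of 0.587, Adamts4 at 0.549 and Mmp9 at 2.07 (1.15 to 3.95), beside 5.16% of all genes past 1.5-fold higher and 7.62% lower, and the median was -0.037.

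Enzymes that build the glycosaminoglycan chains differed little in FAP-like cells. None of 24 genes was past 1.5-fold in either comparison, beside 7.36% of all genes higher and 6.72% lower for age and 4.63% and 4.91% for rMETRNL. The median log2 ratio was -0.085 for age and -0.040 for rMETRNL. B4galt1, Csgalnact1, Dse and Chpf, the 4 with the most UMIs, were at 130, 107, 81.6 and 71.6 CPM in young PBS, with age ratios of 1.09, 1.06, 1.002 and 1.15. In tenocyte-like cells, of 22 genes, Ust was higher in old PBS by a ratio of 1.64 and Csgalnact1, Chsy3, Chst2, Chst11 and B4galt4 were lower, with ratios of 0.591 to 0.655, beside 9.50% of all genes higher and 6.31% lower, and the intervals of Chst11 and B4galt4 reached past 1. The median was -0.125 there for age and -0.073 for rMETRNL. Chst5, a sulfotransferase of keratan sulfate, was at 35.8, 49.6 and 29.1 CPM in tenocyte-like cells and at 0.244, 0.131 and 0.181 CPM in FAP-like cells, so it too was high in tenocyte-like and low in FAP-like cells. With rMETRNL its ratio to old PBS was 0.587 in tenocyte-like cells.

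The fibrillar collagens and partners of FAP-like cells had an age median of 0.052 over 16 genes. Col1a1, Col3a1, Col1a2 and Fn1 had ratios of 0.865, 1.16, 0.966 and 1.21. Col11a1, at 16.9, 4.80 and 12.5 CPM, and Col12a1, at 262, 169 and 202 CPM, were at least 1.5-fold lower in old PBS, as were 6.72% of all genes. With rMETRNL 13 of 16 were below old PBS (median -0.163), where 52.4% of all genes were above it, and Col11a1 was past 1.5-fold higher, at 2.60, as were 4.63% of all genes. In tenocyte-like cells the medians were -0.026 and 0.153, and the fibronectin gene Fn1 was at least 1.5-fold lower in old PBS, as were 6.31% of all genes, at 4443, 2103 and 2827 CPM. Of the receptors bound by soluble SLRPs, 8 of 9 had ratios above 1 in old PBS FAP-like cells (median 0.290), beside the 45.6% of all genes and their median of -0.038. They included Lrp1 at 454, 580 and 499 CPM, Cd44 at 312, 441 and 376 CPM and Egfr at 126, 148 and 133 CPM, and Kdr, an endothelial receptor, was past 1.5-fold in both comparisons at 0.887, 1.54 and 1.02 CPM, beside 7.36% of all genes higher and 4.91% lower. The endothelial markers summed to 17.6, 29.3 and 21.5 CPM there, also highest in old PBS, and their part was not tested. With rMETRNL the median of the receptors was -0.161 against old PBS. In tenocyte-like cells, over 8 receptors, the medians were 0.050 and -0.176, Tlr2 was at 39.6, 32.8 and 20.5 CPM, and the intervals of the Tlr4 ratios reached past 1.

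Of 9 other SLRP and related leucine-rich genes, 8 passed the minimum in FAP-like cells, with medians of 0.244 for age and -0.135 for rMETRNL. In tenocyte-like cells 4 passed, and no median is given because they include Epyc. Podn, podocan, was at 68.1, 121 and 62.9 CPM in FAP-like cells, with ratios of 1.78 (1.70 to 1.87) in old PBS over young PBS and 0.519 (0.494 to 0.545) in old rMETRNL over old PBS. Podnl1 had the opposite order, at 7.54, 2.29 and 3.78 CPM, and Epyc, at 0.843, 0.980 and 2.11 CPM, was past 1.5-fold with rMETRNL. In tenocyte-like cells Epyc had 277, 0 and 49 UMIs, of which 244 in young PBS were in 1 cell. Ecm2, the neighbour of Aspn, was at 132, 159 and 133 CPM in FAP-like cells and at 204, 300 and 338 CPM in tenocyte-like cells. Of the other proteoglycans, 13 passed in FAP-like cells, with medians of 0.184 for age and -0.020 for rMETRNL, and Prg4, lubricin, was past 1.5-fold in old PBS over young PBS, as were 7.36% of all genes, at 215, 414 and 453 CPM. Hspg2, perlecan, was at 288, 414 and 301 CPM and Vcan, versican, at 404, 544 and 537 CPM. In tenocyte-like cells Prg4 was at 3055, 2055 and 2263 CPM, and Vcan, at 55.2, 108 and 79.2 CPM, was at least 1.5-fold higher in old PBS, as were 9.50% of all genes. Srgn, serglycin, was at least 1.5-fold lower there, as were 6.31%, at 141, 63.6 and 50.4 CPM, and Cspg4 had a ratio of 1.54 (1.05 to 2.28) with rMETRNL, beside 5.16% of all genes past that fold. The ratios of Gpc3 were past 1.5-fold with intervals that reached past 1, and the medians over 13 genes were -0.202 and 0.050.

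The genes most like each member were those with the highest Pearson correlation of log2(CPM + 1) over the 24 pairs of 8 classes and 3 libraries, which share cells and depth within a library. Dcn was most like Cilp (r = 0.983), Cpxm1 and Lum, and Lum like Ccbe1 (0.988), Cilp and Dcn. Bgn went with Fstl1 (0.990), Ccdc80 and Col6a3, and Aspn with Shox2 (0.988), C1qtnf2 and Oat. Fmod went with Col11a1 (0.978) and Tnmd, both markers used to name tenocyte-like cells, and with Ptx4. Chad went with Wif1 (0.981), Cilp2 and Kera, and Kera with Angptl7 (0.973), Ptx4 and Cilp2. Ogn was most like Col1a2 (0.982), Mrc2 and Aldh1a1, Omd like Cdh11 (0.978), Twist2 and Cntfr, and Prelp like Kazald1 (0.979), Aebp1 and Boc. Cilp and Cilp2 were also used to name tenocyte-like cells and Col1a2 to name FAP-like cells, so matches to them are not independent of the naming. Among the members themselves, r was 0.982 for Dcn and Lum, which are neighbours on chromosome 10, 0.955 for Kera and Chad on different chromosomes, 0.958 for Bgn and Aspn, and 0.439 for Bgn and Chad.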

How the data were processed

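Single-cell suspensions of injured tibialis anterior muscle were sequenced with 10x Genomics chemistry, 1 library per group. The deposited values are UMI counts per gene and cell barcode, made by the authors with Cell Ranger against mm10 and not normalized. The file headers name Cell Ranger 5.0.0, the submitters' processing notes name 5.0.0 and 3.1.0, and the methods name another version, so the version is not settled. The 3 files were used whole, and 0 columns of other samples were left aside.

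Barcodes with fewer than 500 genes, or with at least 10% of their UMIs from mitochondrial genes, were dropped. The highest Scrublet scores, 0.8% of cells for each 1000 cells, were removed as doublets (1125, 1072 and 1408 cells), because the automatic threshold marked 230, 3 and 0. The 3 libraries were clustered together on 2000 variable genes, less the 10 members and the listed other SLRP and related leucine-rich genes. Clustering used 30 components, 20 neighbours and Leiden resolution 0.8, in Python 3.11.15 with scanpy 1.11.5, leidenalg 0.10.2, numpy 2.4.6, scipy 1.17.1 and pandas 2.3.3. Classes were named from marker lists that hold no member. The conditions for naming a cluster, and the removal of 2 FAP-like sub-clusters that carried markers of another class, were set after the cluster tables were seen. UMIs were summed per class and library and given as CPM with exact Poisson intervals. Ratios carry the exact 95% interval of 2 Poisson counts given their sum, log2 ratios had 0.5 added to each count, and genes with at least 50 UMIs in a class entered counts and medians. Classes and sub-clusters with at least 50 cells in each library were compared. The ratio code was tested on simulated counts. Gene positions came from GENCODE M21, which held 32158 of the 32285 gene identifiers (99.6%).

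The named genes were the 10 members and, of each list (other SLRP genes, glycosaminoglycan chain enzymes, fibrillar collagens and partners, receptors, proteases, other proteoglycans), at most the 4 with the most UMIs in FAP-like cells and those past 1.5-fold. Single cells that held most UMIs of a gene were described after their values were seen. The members and lists were chosen with earlier results of these data known. Alternatives covered the genes used to cluster, doublets, cell filters, resolution, scaling, the mean over cells, the UMI minimum, thinning and the definition of FAPs.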

Additional observations from a re-analysis of the deposited data

Results flagged for a closer look

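In 9 cases a member's ratio between libraries lay above 1 in one connective tissue class and below 1 in the other, with both counting intervals leaving out 1. With 1 library per group these differences between classes were not tested. The share of all genes that met this rule was not computed for either comparison, so the counts are not read as a trait of the SLRP genes. For old PBS over young PBS the rule held for 6 of the 10 genes. Lum was at 1.61 in FAP-like cells and 0.888 in tenocyte-like cells. Bgn was at 1.05 and 0.863 in the same order. The opposite order was found for Fmod at 0.880 and 1.41, Ogn at 0.873 and 1.10, Aspn at 0.965 and 1.53, and Kera at 0.245 and 1.28. The FAP-like Kera ratio rests on 48 and 8 UMIs, and no class level is read from FAP-like Kera. The FAP-like ratios of Bgn, Fmod, Aspn and Kera crossed 1 under at least 1 other setting, whereas those of Lum and Ogn did not.

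For old rMETRNL over old PBS it held for 3 genes, each below 1 in FAP-like cells and above 1 in tenocyte-like cells. Dcn was at 0.769 and 1.10, Lum at 0.697 and 1.16, and Aspn at 0.977 and 1.11. The FAP-like ratio of Aspn crossed 1 under 3 other settings.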

How the results depend on the processing

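No paired analysis was possible because each group had 1 library. Over all settings the median log2 ratio of the SLRP genes in tenocyte-like cells ran from 0.086 to 0.264 for age and from -0.028 with the looser cell filter to 0.157 with the stricter one for rMETRNL. In FAP-like cells it ran from -0.010 to 0.326 and from -0.290 to -0.091, but these medians hold Kera and Chad except at the minimum of 200 UMIs, so no stability is read from them. Of 460 recomputed gene ratios 24 crossed 1. Of these, 13 belong to 6 ratios whose own interval includes 1 (Chad in FAP-like cells for age, and Omd, Prelp, Kera and Chad in tenocyte-like cells), and 11 to ratios whose interval leaves it out. In FAP-like cells the old PBS over young PBS ratio of Kera was 1.59 with doublet calls kept and 2.25 with the looser filter. That of Aspn was 1.02 with the stricter filter and 1.009 in cells with a Pdgfra UMI and no Ptprc UMI. With old rMETRNL over old PBS, FAP-like Fmod was 1.02 at resolution 1.6, FAP-like Aspn 1.04 as a mean of per-cell CPM, and tenocyte-like Ogn 0.997 with doublet calls kept. Settings added after the data were seen gave Bgn 0.981 for age and Aspn 1.012 for rMETRNL without sub-cluster 0, and Fmod 1.11 and Aspn 1.02 with sub-clusters weighted equally. Without sub-cluster 9 the FAP-like rMETRNL ratio was 0.811 for Dcn and 0.726 for Lum. The cause of these moves was not tested. Across settings the FAP-like age ratio ran from 1.31 to 1.79 for Dcn and from 1.35 to 1.67 for Lum, and the rMETRNL ratio from 0.712 to 0.897 and from 0.664 to 0.835.

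Of 234 recomputed class levels 128 moved beyond their interval, and those of pericyte-like cells, the class with the fewest UMIs, moved furthest. Their mean level ran from 543 to 949 CPM for Bgn, from 344 to 759 CPM for Aspn and from 29.4 to 97.9 CPM for Ogn. Of 90 recomputed shares of cells with a UMI, 71 moved beyond their interval. The settings for shares include no thinning and thinning to 5000 UMIs, which use more UMIs per cell and so tend to raise a share. No stability is read from that count. Levels in sub-clusters and in the remaining classes were not run under the alternatives. Depth limits Kera and Chad in FAP-like cells and Omd in all classes.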

Other observations

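Schwann/glial-like cells, at 30, 93 and 52 cells in young PBS, old PBS and old rMETRNL, were too few in young PBS to enter the comparisons. Their Dcn level was 5646, 5354 and 2382 CPM, within the range of FAP-like sub-clusters. Their Omd level was 65.8, 54.0 and 53.7 CPM from 21, 29 and 12 UMIs, above the tenocyte-like and FAP-like levels of each library. These levels were carried by few cells: the Omd UMIs sat in 7, 14 and 5 cells, and the Dcn UMIs in 15, 43 and 18 cells, with 79.9% of them in 5 cells in old rMETRNL.

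In tenocyte-like cells the UMIs of Epyc, the gene next to Kera, came from 3 cells in young PBS and 4 cells in old rMETRNL, with 0 UMIs in old PBS. In FAP-like sub-cluster 4 Fmod was at 3.85, 2.67 and 27.2 CPM. Its levels in the PBS libraries lay within or below the T/NK-like range of 2.94 to 7.75 CPM. Of all FAP-like Fmod UMIs in old rMETRNL, 31.7% sat in 5 cells.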
